A study of Mus musculus with 8 samples.

Results

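Deoxynucleotide synthesis was followed through 7 genes, Tk1, Tyms, Rrm1, Rrm2, Dut, Dtymk and Dck, on 8 Illumina bead arrays of mouse embryonic fibroblasts (MEFs). The 7 were picked by gene symbol, among 9430 named genes with a probe above background. The arrays carried 14 probes for them, of which 11 were detected (detection p-value under 0.05, a comparison with negative control beads) on at least 2 arrays, and all 7 genes kept at least 1 probe. For each gene the brightest such probe was used, and the other detected probes are given beside it.

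The cells came from embryonic day 13.5 embryos on a C57BL/6 background. Cultures were WT (clones 1 and 16) or E2F3 L430Q (clones 2 and 4), called E2F3LQ here, a knock-in that puts glutamine for leucine in the Rb-binding domain of E2F3. Per the study's methods, the E2F3LQ MEFs were homozygous (LQ/LQ) and the WT MEFs came from littermates of the same LQ/+ intercross, with the neomycin cassette removed by a cross to Mox2Cre mice. Each clone was measured once while proliferating in medium with 10% FBS and once after 72 h without FBS, as the labels give it. The study's methods describe starvation only for a BrdU assay, in low serum. Its results also give quantitative RT-PCR of starved MEFs, an assay apart from these arrays. There the study reported Tk among the genes with significantly higher expression in E2F3LQ than in WT. Each of the 4 groups (WT proliferating, E2F3LQ proliferating, WT starved and E2F3LQ starved) thus held 2 arrays. Whether a clone stands for 1 embryo is not given in the sources used here, so the spread behind every p-value is that of 2 clones a genotype.

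Cells need balanced deoxynucleotide pools to copy their DNA. Ribonucleotide reductase, made of the large subunit RRM1 and the small subunit RRM2, turns ribonucleotides into deoxynucleotides. Thymidylate is made de novo from dUMP by thymidylate synthase (TYMS), with folate as the carbon donor, or salvaged from thymidine by cytosolic thymidine kinase (TK1), and the kinase DTYMK carries both products a step further. DUT breaks down dUTP, which keeps uracil out of DNA and supplies dUMP to TYMS, while DCK salvages deoxycytidine. Several of these genes are known targets of E2F factors, which the Rb family holds in check in resting cells.

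The start regions of all 7 members are shown side by side, although the members did not all move together. The windows were RefSeq promoter windows on GRCm38.p6, 250 bases before to 50 after each start, and all 7 genes matched by symbol. The nearest match to a short E2F core (TNNCGC, where each N is C or G, either strand) is in capitals, within 30 bases of the gene's own strand:
Tk1 (chr11:117826069-117826098): aatgaagaaatcTGGCGCtcaacgcttgga
Tyms (chr5:30073586-30073615): tggaggaaaagaGCGCCAggaaggtcctgg
Rrm1 (chr7:102441617-102441646): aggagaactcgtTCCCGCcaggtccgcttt
Rrm2 (chr12:24708158-24708187): gcaactcaaatcTCCCGCgctgggcggcga
Dut (chr2:125247478-125247507): gggggagttggaGCGGGAgcgcgcttggag
Dtymk (chr1:93801988-93802017): agttccgcgagtTGGCGCtcgctaaactgc
Dck (chr5:88764937-88764966): gctcacagctcgTCGCGCacggtcagtcgc

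Tk1, Tyms and Dtymk lie on the minus strand and the other members on the plus strand. The core began 72 bases before the start of Tk1, 66 before Rrm1, 84 before Rrm2, 25 before Dut, 71 before Dtymk and 64 before Dck, and at base 23 after the start of Tyms. The stretches of Tyms, Dut and Dtymk lay inside the annotated span of their gene, that of Tk1 across its edge, and those of Rrm1, Rrm2 and Dck outside it. All 7 windows held at least 1 such core, which was also found in 36.3% of the 32851 windows in the table. The longer E2F octamer (TTTNNCGC, where each N is C or G) was found in 0 of 7 windows, against 2.26% of all windows. CCAAT, the box that NF-Y binds, was found in the windows of Rrm1, Rrm2 and Dtymk (3 of 7, against 37.4% of all windows). The GC box GGGCGG was found in 5 of 7, all but Rrm1 and Dtymk, against 35.7%. A match is only a description of the letters. The Rrm2 window held all 3 kinds of short match, and its 250 bases before the start are given whole, with GC box, CCAAT and E2F core matches in capitals:
Rrm2 (chr12:24708004-24708253): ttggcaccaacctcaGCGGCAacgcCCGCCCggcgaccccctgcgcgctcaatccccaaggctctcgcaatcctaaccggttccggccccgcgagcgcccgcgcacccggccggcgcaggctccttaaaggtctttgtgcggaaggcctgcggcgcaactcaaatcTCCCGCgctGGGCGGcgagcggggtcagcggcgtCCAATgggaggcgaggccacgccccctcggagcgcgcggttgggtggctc

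The arrays were alike in brightness, with median intensities of 108.4 to 127.3 and 12141 to 12420 detected probes. The proliferating E2F3LQ clone 2 array stood apart, with 685 of 10214 features over 2-fold away from the average of the remaining 3 proliferating arrays, where each of those 3 had 103 to 223 such features. Results that rest on it are given with and without it. Of 10 fibroblast markers, 9 were on the array and detected on both arrays of every group. Of 14 macrophage and blood markers, 11 were tested, and their summed linear signal ranged from 5598 to 10841 in proliferating WT, from 1564 to 8798 in proliferating E2F3LQ, from 9412 to 10426 in starved WT and from 3233 to 8074 in starved E2F3LQ. Between starved genotypes the 11 had a median log2 difference of -0.83, against 0.00 over all features, and 2 of 11 had a positive difference. Cx3cr1 and C1qa were not detected on any starved array. Between proliferating genotypes the median was -1.53, against -0.03 over all features, and 1 of 11 was positive. In both comparisons 0 of the 11 were called, as were 0% of all features. At an unadjusted p under 0.05, 7 of the 11 were lower in proliferating E2F3LQ, against 174 of 10214 features. In starved E2F3LQ 0 of the 11 were, against 128 of 10214. With starvation, averaged over genotypes, 6 of the 11 were called lower, as were 2 of 4 tested skeletal muscle markers and 1 of 3 neural markers. The share of all features called lower was 11.5%. The summed muscle signal was 572 and 1338 in proliferating WT, 84.5 and 86.6 in starved WT, 414 and 519 in proliferating E2F3LQ and 76.6 and 107.6 in starved E2F3LQ, so it was lower on every starved array. The neural sum was 446 and 601, 198 and 217, 288 and 602, and 223 and 278 in the same order of groups. Their part in the results below was not tested. The E2f3 probe cannot check a point mutation. Its log2 signal was 7.06 and 6.97 in proliferating WT and 6.74 and 6.60 in proliferating E2F3LQ. In starved cells it was 6.54 and 6.65 in WT and 6.14 and 6.01 in E2F3LQ. It was thus lower in E2F3LQ in both conditions but, like every other feature, not called between genotypes. What lay behind this was not tested.

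All levels below are log2 signals after background correction and quantile normalization, and every difference is a log2 fold change from limma. Levels of different genes are not compared, because probes differ in brightness.

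Serum starvation lowered the signal of thymidine kinase, thymidylate synthase and the small reductase subunit, while the other 4 genes did not pass the test. Averaged over both genotypes, Tk1 fell by 1.22 on the log2 scale (SE 0.21, 2.33-fold, adjusted p = 0.00855), Tyms by 0.89 (SE 0.11, 1.85-fold, adjusted p = 0.00291) and Rrm2 by 0.43 (SE 0.13, 1.34-fold, adjusted p = 0.0499). So 3 of 7 members were called lower, where 11.5% of all 10214 features were. With the clone as a fixed replicate block Rrm2 missed the threshold (adjusted p = 0.0683), which leaves 2, and its call held under 3 of 13 other settings. Macrophage, muscle and neural markers also had members that fell with starvation, as given above, but not all fell. Positive differences were found for 5 of 11 macrophage, 2 of 4 muscle and 0 of 3 neural markers. Of 9 fibroblast markers 4 were called higher and 2 lower, against 10.9% and 11.5% of all features. In the same 3 genes every starved array was below every proliferating array, which held for 15.5% of all features. The median log2 fold change was -0.33 over the 7 genes and 0.00 over all features.

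Tk1 was read from a probe with signal on all 8 arrays. Its log2 signal was 8.57 and 8.74 in proliferating WT (clones 1 and 16), 8.18 and 9.11 in proliferating E2F3LQ (clones 2 and 4), 7.25 and 6.89 in starved WT and 7.81 and 7.78 in starved E2F3LQ. Starved WT cells were lowest on both arrays, starved E2F3LQ cells lay between them and the proliferating cells, and the proliferating E2F3LQ clones lay far apart. All 4 clones had less Tk1 signal after starvation, by 1.32 and 1.85 in WT clones 1 and 16 and by 0.38 and 1.33 in E2F3LQ clones 2 and 4. The smallest of these changes used the array that stood apart.

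Within a genotype, the serum effect on Tk1 was called in WT, where it fell by 1.58 (SE 0.30, 2.99-fold, adjusted p = 0.025). In E2F3LQ the difference was -0.85 (SE 0.30, adjusted p = 0.143) and missed the threshold. Without the proliferating clone 2 array it was -1.32 (adjusted p = 0.0109) and passed. The WT call was lost when any of 6 of the 8 arrays was left out, the 4 WT and 2 starved E2F3LQ arrays (adjusted p from 0.00158 to 0.176 over the 8).

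Tyms lay at 8.70 and 8.93 in proliferating WT, 9.23 and 9.24 in proliferating E2F3LQ, 7.97 and 7.87 in starved WT and 8.29 and 8.43 in starved E2F3LQ. The 4 groups did not overlap on this probe, and their order was starved WT, starved E2F3LQ, proliferating WT and proliferating E2F3LQ from low to high. The serum difference was -0.89 in WT (SE 0.15, adjusted p = 0.0197) and -0.88 in E2F3LQ (SE 0.15, adjusted p = 0.0301). With the clone as a fixed replicate block, the E2F3LQ value missed the threshold (adjusted p = 0.0585). Leaving out any WT array ended the Tyms call in WT (adjusted p up to 0.161), and leaving out any starved array ended that in E2F3LQ (adjusted p up to 0.179). Counted over members, 2 of 7 (Tk1 and Tyms) were called lower in WT, against 4.3% of all features, and 1 of 7 (Tyms) in E2F3LQ, against 2.14%. The differences share no array, and each rests on 2 clones. Their p-values share the estimate of the spread from all 8 arrays, so the calls are not independent.

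**Figure D1:**
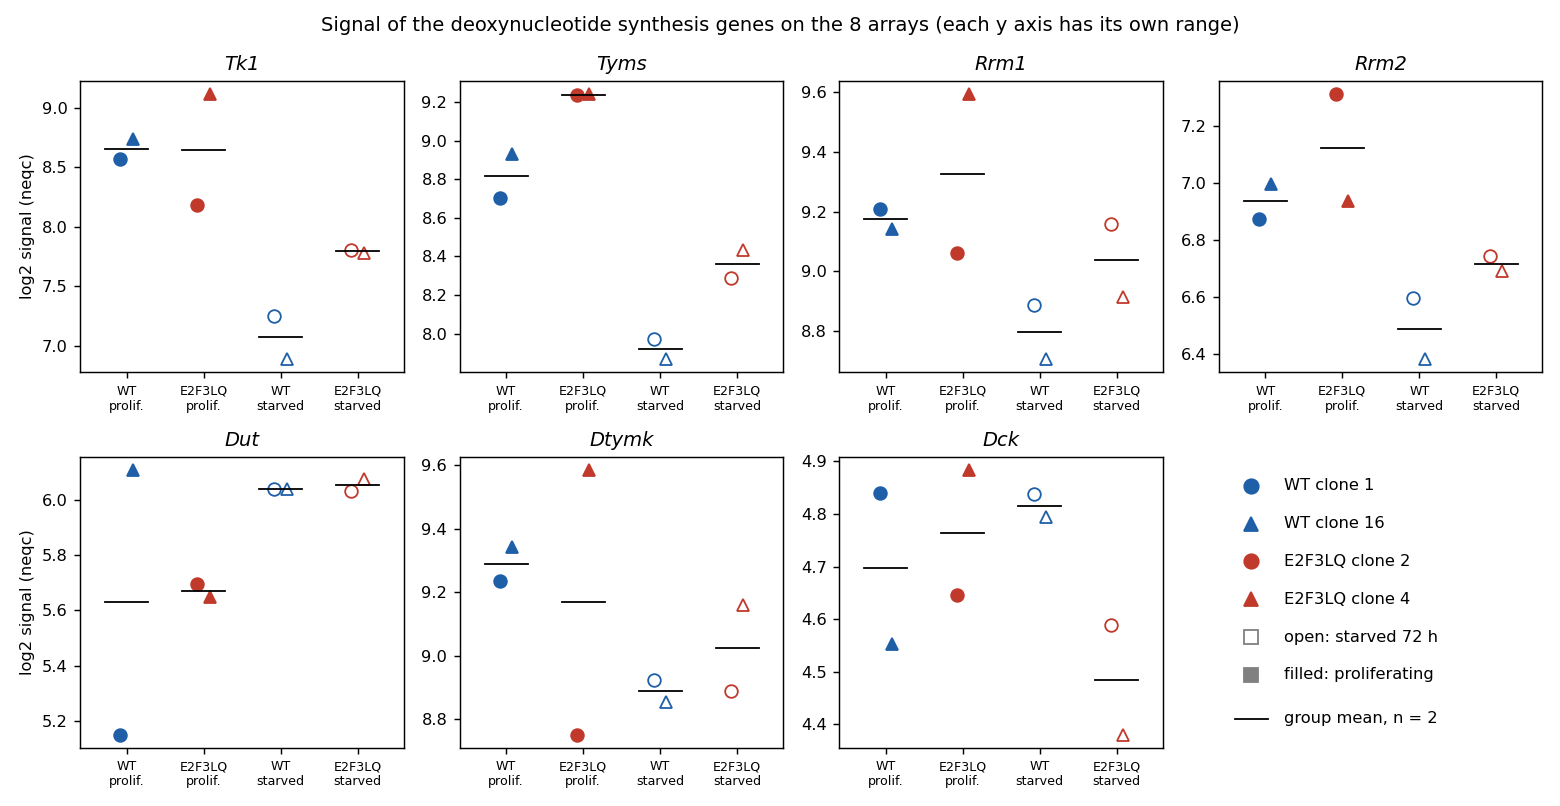
Log2 signal of each gene (y axis, its own range in each panel) in the 4 groups (x axis); each point is an array, circles and triangles tell the clones apart, and the line is the mean of the 2 arrays. Starved WT cells have the lowest Tk1 and Tyms signal (7.25 and 6.89 for Tk1, 7.97 and 7.87 for Tyms), and Dut is low on 3 of 4 proliferating arrays.

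Both reductase subunits had negative serum differences, and Rrm2 was the subunit called. The difference between the subunits was not tested. Rrm2, the subunit that carries the radical and whose amount is known to follow S phase, had a log2 signal of 6.87 and 6.996 in proliferating WT, 7.31 and 6.94 in proliferating E2F3LQ, 6.59 and 6.38 in starved WT and 6.74 and 6.69 in starved E2F3LQ. Each of the 4 clones was lower after starvation, by 0.28 and 0.61 in WT and by 0.57 and 0.25 in E2F3LQ. The Rrm2 call sat at the threshold: it was lost when any of 7 of the 8 arrays was left out (adjusted p from 0.0156 to 0.172 over the 8).

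Rrm1, the large subunit, was at 9.21 and 9.14 in proliferating WT, 9.06 and 9.59 in proliferating E2F3LQ, 8.89 and 8.71 in starved WT and 9.16 and 8.91 in starved E2F3LQ. The starved and proliferating E2F3LQ arrays overlapped, since clone 2 was slightly higher after starvation. Its averaged serum difference was -0.33 (SE 0.15, adjusted p = 0.148), with a 95% interval of -0.68 to 0.01, and with 1 array left out it passed the threshold only without proliferating E2F3LQ clone 2 (-0.47, adjusted p = 0.0264).

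Dtymk, the thymidylate kinase downstream of both TK1 and TYMS, lay at 9.23 and 9.34 in proliferating WT, 8.75 and 9.58 in proliferating E2F3LQ, 8.92 and 8.85 in starved WT and 8.89 and 9.16 in starved E2F3LQ. Its serum difference of -0.27 (SE 0.19, adjusted p = 0.337, 95% interval -0.72 to 0.17) was within the spread between clones, of which 3 were lower and 1 higher after starvation. Here too the call depended on the proliferating E2F3LQ clone 2 array, without which the difference was -0.49 (adjusted p = 0.0229).

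Dut was the only member with a positive serum difference (0.40, SE 0.20, adjusted p = 0.199), and this did not pass. The signals were 5.15 and 6.11 in proliferating WT, 5.69 and 5.65 in proliferating E2F3LQ, 6.04 and 6.04 in starved WT and 6.03 and 6.08 in starved E2F3LQ. The 4 starved arrays lay close together, and the proliferating WT clones were furthest apart of any group. Without the proliferating WT clone 16 array the difference was 0.64 (adjusted p = 0.0197) and passed.

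Dck was close to background. It was detected on 4 of 8 arrays, 1 of 2 in each proliferating group, both in starved WT and neither in starved E2F3LQ. Its signals ran from 4.38 to 4.88, and the serum difference was -0.08 (SE 0.12, adjusted p = 0.676). Because both starved E2F3LQ arrays were not above background, they were set to the lowest signal of a detected probe on each array, or the probe's own where higher. Against that floor the starved WT mean was 1.06-fold higher, a point value without an error. The starved WT arrays were themselves near background (detection p-values 0.024 and 0.041). By limma the E2F3LQ against WT difference was not called (adjusted p = 1). Its interval of -0.74 to 0.08 does not exclude a lower signal in WT.

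**Figure D2:**
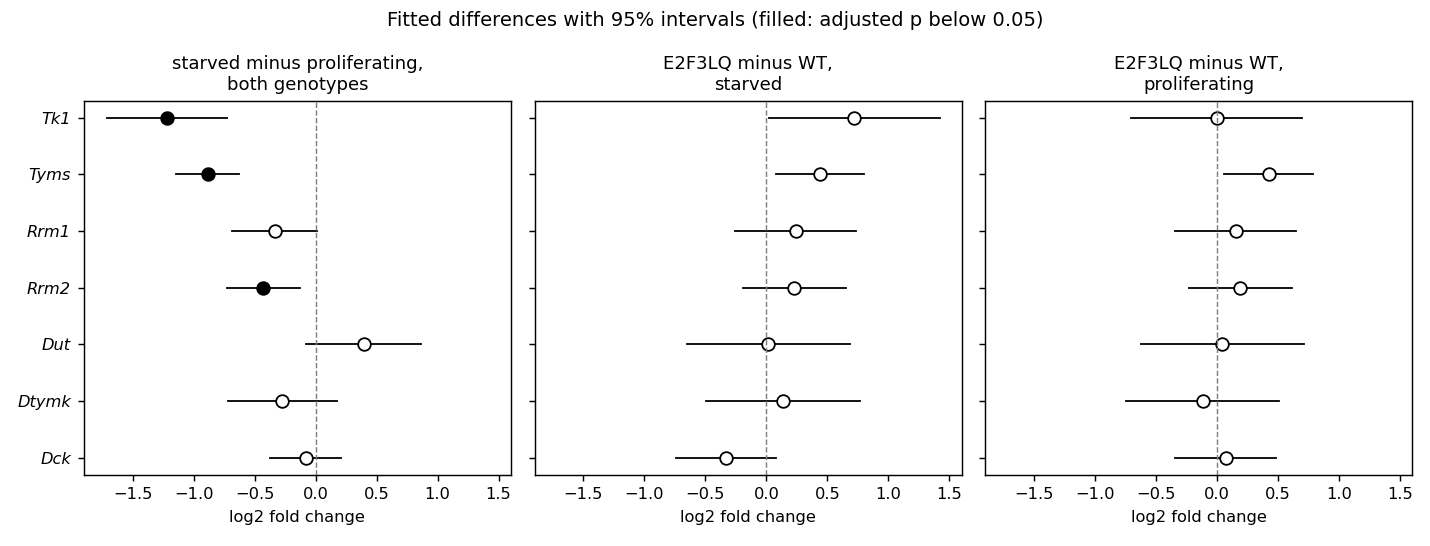
Log2 fold change (x axis) of each gene with its 95% interval from limma for 3 comparisons; filled points had an adjusted p under 0.05. Tk1 (-1.22), Tyms (-0.89) and Rrm2 (-0.43) are filled for serum starvation, and no point is filled for either genotype comparison. Dck was not above background in starved E2F3LQ, so its starved genotype point is no measured size.

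Whether E2F3 that escapes Rb changes these genes is the question of the genotype comparison. In starved cells, Tk1 and Tyms had higher signals in both E2F3LQ clones than in either WT clone, but no member passed the test: 0 of 7 were called, as were 0% of all features in this comparison. The Tk1 difference was 0.72 (SE 0.30, 1.65-fold, 95% interval 0.02 to 1.42, adjusted p = 1), and both E2F3LQ clones were above the WT mean by a like amount, 0.73 and 0.71. Tyms was 0.44 higher (SE 0.15, 1.35-fold, 95% interval 0.08 to 0.80, adjusted p = 1). Those were the members with an unadjusted p under 0.05, 2 of 7, against 0.959% of all features in that direction.

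For the other members, Rrm1, Rrm2, Dtymk and Dut had starved genotype differences of 0.24 (SE 0.21), 0.23 (SE 0.18), 0.14 (SE 0.27) and 0.01 (SE 0.28). Dck, not above background in starved E2F3LQ, has only the value against the floor given above. In 4 of 7 members, Tk1, Tyms, Rrm1 and Rrm2, both starved E2F3LQ arrays were above both starved WT arrays, compared with 17% of all features. The median difference was 0.23 over the members, with Dck the lowest of them also at its value against the floor, and 0.00 over all features.

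The Tk1 difference rested on the brighter probe. A dimmer Tk1 probe, also detected on all 8 arrays, read 4.92 and 4.89 in starved WT and 4.98 and 4.75 in starved E2F3LQ. The difference was -0.04 (SE 0.19). On the starved arrays this probe was near background, with detection p-values of 0.0138 to 0.0426. Its raw signals there were 110.8 to 124, against 176.2 to 323.8 for the brighter probe. In proliferating cells the dimmer probe read 5.80 and 5.34 in WT and 5.68 and 5.70 in E2F3LQ. It did show the serum effect, -0.75 averaged over genotypes (adjusted p = 0.0102 when used in place of the brighter probe). The probes thus gave the serum effect in the same direction. The starved genotype difference was seen on the brighter probe only, and on the dimmer one it was smaller than its error. Another Tk1 probe was detected on 0 arrays.

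For Tyms, the second probe gave a serum difference of -0.80 (adjusted p = 0.0327) and was 0.35 higher in starved E2F3LQ and 0.77 higher in proliferating E2F3LQ than in WT. On that probe the starved genotypes overlapped, with 5.66 and 5.05 in WT and 5.82 and 5.60 in E2F3LQ. A further probe, detected on 3 arrays, gave a serum difference of 0.03 and a starved genotype difference of -0.10. Tyms-ps, an annotated pseudogene of Tyms on chromosome 10, has a probe of its own that is not independent, since near-identical transcripts can bind both. Its signal was 7.90 and 7.88 in starved WT and 8.49 and 8.45 in starved E2F3LQ, a difference of 0.58 (SE 0.14, adjusted p = 1), and it fell by 0.67 with starvation (adjusted p = 0.00513). Which transcript each probe reports cannot be told apart here.

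The second Rrm2 probe gave a serum difference of -0.18 (adjusted p = 0.404) and a starved genotype difference of 0.22. It was highest in proliferating E2F3LQ clone 4 (7.13), while the brighter probe was highest in clone 2 (7.31).

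**Figure D3:**
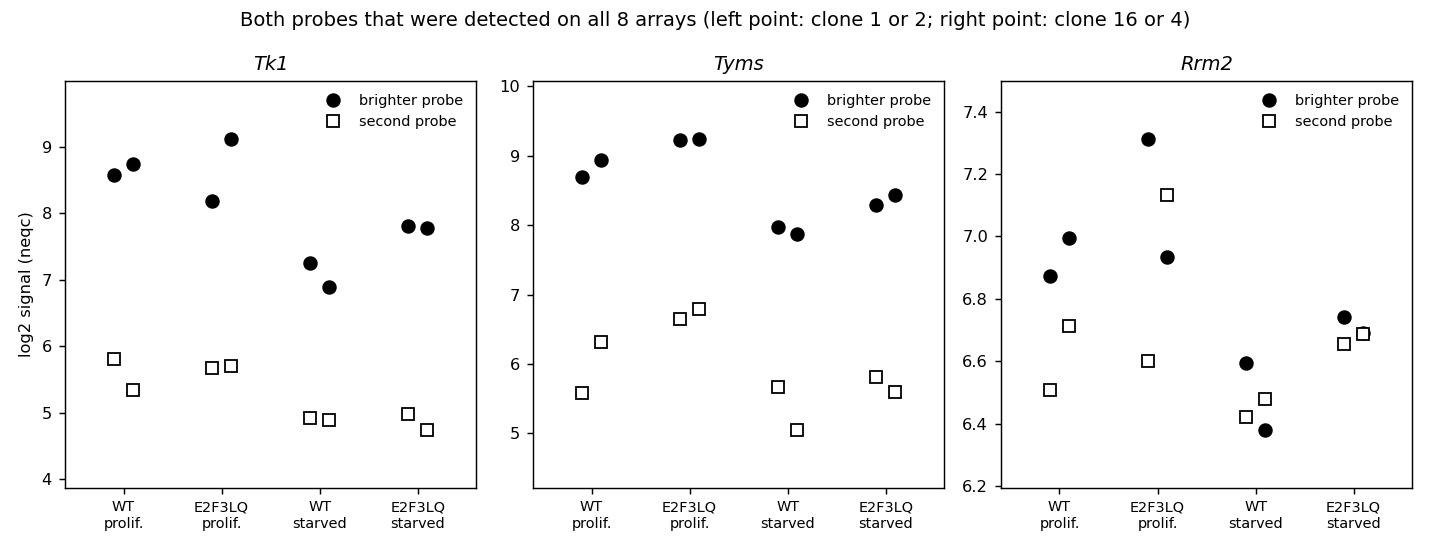
Log2 signal (y axis) of both probes detected on all 8 arrays for Tk1, Tyms and Rrm2 by group (x axis); filled circles are the brighter probe and open squares the second probe, with the 2 arrays of a group side by side. The brighter Tk1 probe separates starved E2F3LQ (7.81 and 7.78) from starved WT (7.25 and 6.89), and the second does not (4.98 and 4.75 against 4.92 and 4.89).

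In proliferating cells 0 of 7 members were called between genotypes, against 0% of all features. Tyms was again 0.42 higher in E2F3LQ (SE 0.15, 1.34-fold, adjusted p = 0.999), with both E2F3LQ arrays above both WT arrays. It was the only such member, 1 of 7, against 9.54% of all features, and also the only member with an unadjusted p under 0.05, against 1.13%. The proliferating Tk1 difference was -0.01 (SE 0.30, 95% interval -0.70 to 0.69), because clone 2 was 0.47 below and clone 4 was 0.46 above the WT mean. Without the clone 2 array it was 0.46 (adjusted p = 0.999).

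The serum effect was set against genotype in an interaction term, and 0 of 7 members were called, against 0% of all features. The number of members with an unadjusted p under 0.05 was 0, against 1.53%. Tk1 had the largest interaction of the 7, with a serum decrease 0.73 smaller in E2F3LQ (SE 0.42, 95% interval -0.26 to 1.71, adjusted p = 1). The dimmer Tk1 probe, near background on the starved arrays, gave -0.16 (SE 0.27), of opposite sign but smaller than its error. On the brighter probe, without the proliferating clone 2 array the Tk1 interaction was 0.26, and without the proliferating clone 4 array it was 1.19. For Tyms the interaction was 0.02 (SE 0.22, 95% interval -0.50 to 0.53), an interval that spans both directions.

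The members were set beside a reference list of S phase genes, chosen with earlier results of these data known. Of its 17 genes 14 were tested, and 10 fell with starvation (median -0.65), against 11.5% of all features. In starved cells 0 of the 14 were called between genotypes, 13 were higher in E2F3LQ (median 0.57), and 12 had both E2F3LQ arrays above both WT arrays, against 17% of all features. The summed linear signal of that list was 2552 to 2670 in starved WT and 3692 to 4119 in starved E2F3LQ. In bulk cultures, fewer cells in S phase and less RNA per cell cannot be told apart.

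Across the 8 arrays the members did not follow a single course. As a description over 8 arrays that share 4 clones and the serum contrast, Tyms correlated with Rrm2 (Pearson r = 0.91) and Tk1 (0.89), and Tk1 with Rrm1 (0.90). Dut was negative with every other member, from -0.27 with Dtymk to -0.52 with Dck. Dck was near 0 with Tk1 (0.06) and Tyms (-0.03). The genes whose profile was most like the mean of the 7 were Iqgap3 (r = 0.997), Zfp386 (0.990), Sgo1 (0.987), Chek2 (0.984), Tmpo (0.984), Pigq (0.983), Cbx5 (0.982) and Ncapd2 (0.980). Several of these have known roles in the dividing cell, SGO1 in guarding sister chromatid cohesion, NCAPD2 as a condensin subunit and CHEK2 as a checkpoint kinase.

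By member, the nearest profiles to Tk1 were Mcm5 (0.992), a subunit of the replicative helicase, and Pbk (0.991), a mitotic kinase. Those nearest to Tyms were Orc5 (0.989), of the origin recognition complex, and Pmvk (0.980). Dtymk was nearest to Lsm6 (0.990) and Shmt2 (0.985), the latter a mitochondrial folate enzyme. Rrm1 was nearest to Zbtb45 (0.984) and Srebf1 (0.965), Rrm2 to Prxl2c (0.964) and Pde4d (0.952), Dut to Ranbp10 (0.955) and Tm9sf4 (0.953), and Dck to Ndufa8 (0.910) and Hspe1 (0.888). All were picked as the highest among the 9430 named genes tested, with the members themselves left out.

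The rest of nucleotide metabolism moved in both directions with serum. Of 90 further genes in 8 groups, 78 had a probe and 71 were tested. Averaged over genotypes, 13 were called lower and 8 higher, against 11.5% and 10.9% of all features, with a median of -0.09. Between genotypes in starved cells 0 of the 71 were called. The number called for serum ran from 10 to 35 with 1 array left out, and was highest without the proliferating E2F3LQ clone 2 array.

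The breakdown and deamination group held both a strong decrease and many genes that were not called. Nt5e, the ecto-5'-nucleotidase CD73, fell by 1.96 (3.89-fold, adjusted p = 0.00142), and Ada, adenosine deaminase, by 0.73 (adjusted p = 0.00531). Dnph1, which hydrolyses deoxynucleotides, fell by 0.66 (adjusted p = 0.0451), a call that held under 6 of 13 other settings. Nt5e, Ada and Dnph1 were the 3 called of 15 tested breakdown and deamination genes, where 11.5% of all features were called lower. Among 17 other kinases, 3 were called lower and 4 higher, against 11.5% and 10.9% of all features. Uck2, uridine-cytidine kinase, fell by 1.24 (adjusted p = 0.00322). Tk2, the mitochondrial thymidine kinase, rose by 0.79 (1.73-fold, adjusted p = 0.00562) and Nme3 rose by 0.75 (adjusted p = 0.00877). Cytosolic and mitochondrial thymidine kinase transcripts thus had serum differences of opposite sign. Cmpk2, named after its value was seen, had the largest positive difference of the list at 2.04 but a wide error (SE 0.61, adjusted p = 0.0503), and it passed with the clone as a fixed replicate block (adjusted p = 0.0154).

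Of 6 tested partners of the reductase, Rrm2b rose by 0.41 (SE 0.11, 1.33-fold, adjusted p = 0.0336). It encodes the small subunit that p53 induces and that serves resting cells, and its serum difference had the opposite sign to that of Rrm2. Ahcyl1, which encodes the reductase-binding protein IRBIT, fell by 0.55 (adjusted p = 0.0116), and Txn1, the reductant thioredoxin, was at -0.72 (adjusted p = 0.103). With the clone as a fixed replicate block the adjusted p was 0.0552 for Rrm2b, which ended its call, and 0.0167 for Txn1, which passed. In uracil repair 1 of 3 genes was called lower, against 11.5% of all features. Ung, the glycosylase that removes uracil from DNA, fell by 1.27 (2.42-fold, SE 0.32, adjusted p = 0.0295). The Ung call held under 10 of 13 other settings. Tdg was at -0.35 and Smug1 at -0.01, neither past the threshold.

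Of 5 de novo pyrimidine genes, Ctps, CTP synthase, rose by 1.17 (2.25-fold, adjusted p = 0.00281), whereas Umps fell by 0.64 (adjusted p = 0.0117) and Cad by 0.47 (adjusted p = 0.0284). In purine synthesis and salvage 2 of 12 were called lower and 1 higher, against 11.5% and 10.9% of all features. Adss fell by 1.17 (adjusted p = 0.00514), Gart by 0.55 (adjusted p = 0.0323), and Prps2, a phosphoribosyl pyrophosphate synthetase, rose by 0.89 (adjusted p = 0.00837). Among 5 carriers, Slc25a33 fell by 0.88 (adjusted p = 0.0103) and Slc29a3 rose by 0.45 (adjusted p = 0.028, and 0.0523 with the clone as a fixed replicate block). In the folate cycle 0 of 8 were called by limma, and 3 had an unadjusted p under 0.05, against 37.1% of all features. These were Mthfd2 at -1.01 (adjusted p = 0.129), Shmt1 at -0.52 (adjusted p = 0.071) and Slc46a1 at 0.40 (adjusted p = 0.0958). Mthfd2 passed with the clone as a fixed replicate block (adjusted p = 0.0209), and without the proliferating E2F3LQ clone 2 array Mthfd2 (-1.43, adjusted p = 0.0145) and Shmt1 (-0.67, adjusted p = 0.00843) passed.

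**Figure D4:**
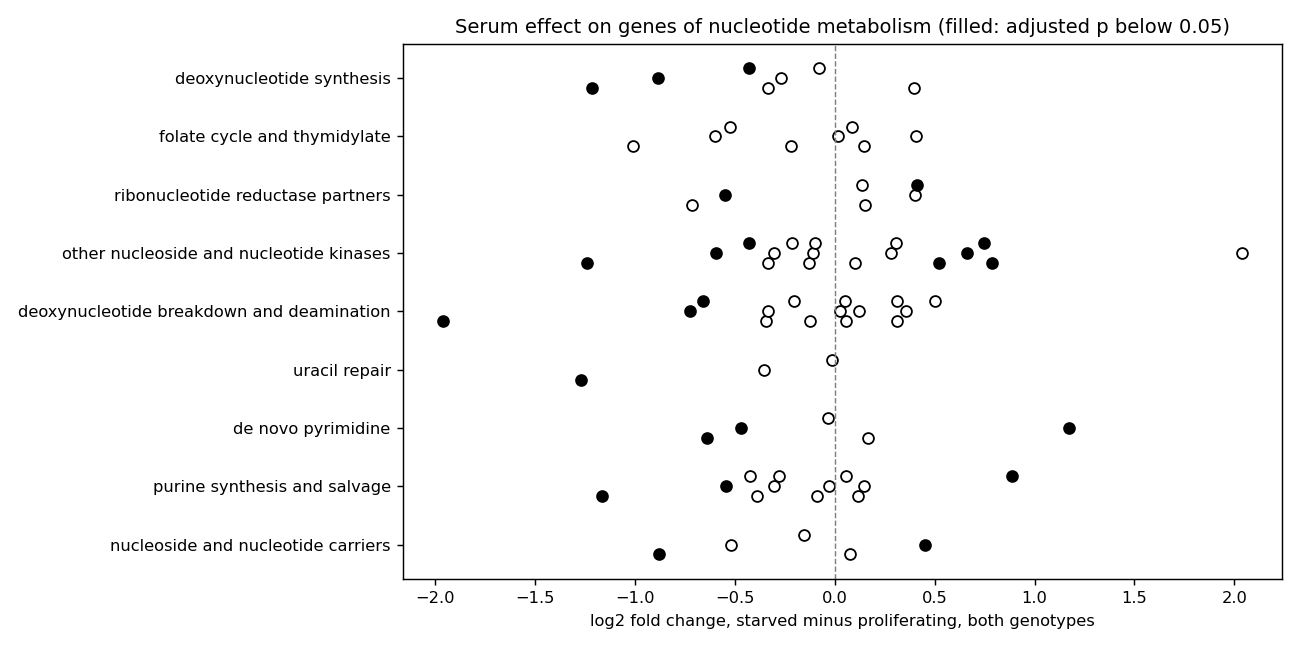
Log2 fold change of starved against proliferating cells averaged over genotypes (x axis) for each tested gene (points) of 9 groups of nucleotide metabolism (y axis, with the 7 members on top); filled points had an adjusted p under 0.05. Filled points lie on both sides of 0 in 5 of the 8 further groups, from Nt5e at -1.96 to Ctps at 1.17.

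With any 1 of the 8 arrays left out, the calls of Nt5e, Ada, Uck2, Tk2, Nme3, Ctps, Adss, Prps2 and Slc25a33 held. The calls of Ahcyl1 and Umps were lost for 2 arrays each (highest adjusted p 0.0624 and 0.0554), those of Cad and Gart for 5 (0.118 and 0.118), and those of Rrm2b, Dnph1, Ung and Slc29a3 for 6 (0.135, 0.148, 0.101 and 0.116).

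Of the wider list, the smallest unadjusted p-values between starved genotypes belonged to Slc29a1, the equilibrative nucleoside transporter that takes up thymidine, which was 0.69 higher in E2F3LQ (SE 0.24), and to the glutaredoxin Glrx3 at -0.55 (SE 0.17). Neither passed adjustment (adjusted p = 1 for both). Of the 71 genes, 1 higher and 1 lower had an unadjusted p under 0.05, against 2.21% of all features in either direction. In proliferating E2F3LQ Slc29a1 was also higher, by 0.78 (SE 0.24). Glrx3 had the opposite sign there, at 0.66 (SE 0.17), and neither passed adjustment.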

How the data were processed

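Total RNA of 8 MEF cultures, 4 clones each proliferating and starved, was hybridised to 1-colour Illumina bead arrays. For every array and probe the authors deposited a signal intensity, in whose values no normalization was visible, and a detection p-value against negative control beads. They also deposited processed intensity values with medians of 8.4 to 8.5, reaching -14.4, for which the sources used here give no background or normalization settings. The study's methods name GenomeStudio and the Mouse WG-6 array. The deposited table held 25697 probes, and why that array has fewer here than its name implies stayed unknown. Intensities, not counts, were measured, so the number of arrays limits the precision.

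Groups, clones and replicate numbers came from the labels, and no column of sample values was left unused. Probes were named from the platform annotation (23978 with 1 symbol, 0 with several, 1719 with none). Signals were corrected and quantile-normalized with neqc (offset 16) in limma 3.58.1, with statmod 1.5.0 and R 4.3.3. Probes detected (p-value under 0.05) on at least 2 arrays were kept (13666), and the brightest per gene was used, which left 10214 features. A linear model of the 4 groups (lmFit, eBayes, 3.27 prior and 4 residual degrees of freedom) gave the serum effect averaged over genotypes and within each, the genotype effect within each condition, and the interaction. Every adjusted p in the text is limma's, by Benjamini-Hochberg over the 10214 features, called under 0.05. An exact permutation test of 2 arrays against 2 cannot go below 0.333 (two-sided) and was not used. The same clone was measured in both conditions, per the labels, so the clone pairs the arrays for serum effects; across genes, the clone differences in the conditions correlated at 0.09 in WT and 0.29 in E2F3LQ. Fits with the clone as a replicate block are given where they change a call.

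Named genes were all members, up to 3 genes with the smallest p per further group, and the 8 and 2 nearest profiles by Pearson's r. The members and lists were chosen with earlier results of these data known. Alternatives were other background corrections and scalings, the authors' processed values after adding 16 and taking log2, other filters, the mean of probes, an intensity trend, separate fits, the clone as block, the methods' t-test and leaving out arrays or clones. Slide and scan could not be blocked, since no source used here gives them. The fit was tested on simulated data with large changes in bright probes, equal noise on all probes and no clone effect. That test does not cover small changes or dim probes. Promoter sequence is from RefSeq (GRCm38.p6). Figures used matplotlib 3.10.9.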

Additional observations from a re-analysis of the deposited data

How the results depend on the processing

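With 2 clones per group, no genotype difference of the size seen here was called. Under 26 other settings, 45 of 973 member differences reversed, and 0 of those were called differences. The serum decreases of Tk1 and Tyms, averaged over genotypes, stayed past the threshold under all 13 other settings and with any 1 of the 8 arrays left out (Tk1 adjusted p from 0.000432 to 0.0436, Tyms from 0.00207 to 0.0222). Without both arrays of a WT clone both calls were lost (Tk1 0.113 and 0.123, Tyms 0.0823 and 0.0802). The Rrm2 call held under 3 of 13 other settings.

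With arrays or clones left out, the members called for serum ran from 0 to 4 averaged over genotypes, from 0 to 2 in WT and from 0 to 2 in E2F3LQ, and the wider list from 0 to 35. In WT, 1 member was called with the mean of a gene's probes, 0 with the methods' t-test and 0 with the next brightest probe. In E2F3LQ 0 were called under each of these, with only the 4 arrays compared, and with the clone as a fixed replicate block. That block ended the calls of Tyms in E2F3LQ (adjusted p = 0.0585) and, averaged over genotypes, of Rrm2 (0.0683), Rrm2b (0.0552) and Slc29a3 (0.0523), while Mthfd2 (0.0209), Txn1 (0.0167) and Cmpk2 (0.0154) passed with it. It changed no other call of a named gene. The next brightest probe was chosen as a setting after seeing the data.

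The next brightest probe gave Tk1 genotype differences of -0.040 in starved and 0.12 in proliferating cells, and interactions of -0.16 for Tk1 and -0.42 for Tyms. The Tyms interaction was -0.24 with the mean of probes, -0.027 without background correction and -0.0037 with an offset of 50, and ran from -0.098 to 0.13 with arrays left out. The proliferating Tk1 genotype difference was 0.0058 without background correction, 0.024 with cyclic loess and 0.058 with the mean of probes, and ran from -0.47 to 0.46 with arrays left out. The starved genotype difference of Dut was -0.020 with median scaling and ran from -0.0078 to 0.036 with arrays left out. The serum differences of Dck (0.091 with median scaling, -0.18 to 0.032 with arrays left out) and Smug1 (0.023 with cyclic loess, -0.10 to 0.076) also changed sign. The cause was not tested.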
